A study of Mus musculus with 7 samples.

Results

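The genes that write, copy and remove DNA methylation were read in LSK cells, the lineage-negative, Sca1- and cKit-positive cells of the bone marrow (BM), which contain multipotent progenitors and hematopoietic stem cells (HSCs). They were chosen by symbol from the deposited table, which gives 9 of its 48440 genes: the TET genes Tet1, Tet2 and Tet3, the DNA methyltransferase genes Dnmt1, Dnmt3a and Dnmt3b, and Uhrf1, Tdg and Mbd4. The study asked what loss of PROSER1, a protein that binds TET enzymes, does to stem and progenitor cells. BM of wild-type mice (4 libraries) or of constitutive PROSER1 KO mice, made with an endonuclease (3 libraries) was transplanted into C57BL/6 recipients irradiated with 9.5 Gy, and LSK cells were sorted 77 days later. The labels give no other treatment, the hosts of both groups were irradiated, and the KO, being constitutive, was not confined to the blood cells of the donors. The sources used here give no ages for the mice behind these libraries and no step that separated donor LSK cells from host cells that survived the irradiation. Libraries are labelled as biological replicates, without saying which animals they came from, so that the p-values measure the spread between these samples.

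DNA methyltransferases put a methyl group on cytosine, mostly where it is followed by guanine (CpG). DNMT3A and DNMT3B set new methylation, while DNMT1, guided by UHRF1, copies it onto the new strand after replication. TET enzymes oxidize methylated cytosine stepwise with oxygen, iron and 2-oxoglutarate, and TDG, a glycosylase, cuts the most oxidized forms out so that base excision repair can put back plain cytosine. MBD4 binds methylated CpG and removes the thymine left when methylated cytosine loses its amino group. In blood, TET2 and DNMT3A are the enzymes most often mutated in clonal hematopoiesis, and PROSER1 joins TET proteins with OGT and paraspeckle proteins in the TOPD complex.

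All 9 genes were measured well above the low end of the table. Their recovered read pairs ranged from 1328 (Mbd4, wild-type replicate 3) to 26319 (Dnmt1, PROSER1 KO replicate 2) per library, out of 33143619 to 45140743 read pairs on genes. The values below are normalized counts, which are read pairs divided by 1 size factor per library. Groups were set against each other by limma, after log2(normalized count + 1), in the 16251 genes that averaged at least 10, among them all 9 enzymes. A call needed more than 1.5-fold change and an adjusted p-value (Benjamini-Hochberg over these genes) under 0.05. Among all genes tested, 42 were called, or 0.258%, and among the 9 enzymes 0 were called with limma, with edgeR and with DESeq2. Each of these tools gave 2 of 9 an unadjusted p-value under 0.05. With limma they were Tet1 and Mbd4, beside 9.73% of all genes. Every one of the 9 confidence intervals (95%, limma) lay inside a 1.5-fold change either way, from a lowest bound of 0.867-fold (Tet2) to a highest of 1.29-fold (Tet1).

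The targeted gene did not check the labels. Proser1 had 2019, 2153, 2103 and 2077 normalized counts in wild-type, against 2464, 2359 and 2338 in the libraries labelled PROSER1 KO, here called KO-labelled (log2 fold change 0.19, unadjusted p = 0.00301, adjusted p = 0.204, limma). Its KO-labelled values all lay above those in wild-type, as did those of 5.17% of all genes. Proser1 mRNA was thus not lower in the libraries labelled KO, and which group is the KO is known from the labels alone. Counts of mRNA do not measure the protein. The genes of the LSK gate were present in every library, with Kit at 25535 to 32357 normalized counts and Ly6a, which encodes Sca1, at 3961 to 6822. Of the 10 LSK and stem cell markers Slamf1 was the lowest, at 290 to 478, and 3 had a positive log2 fold change. The 3 were Slamf1 (0.28, adjusted p = 0.559, limma), Procr (0.22, adjusted p = 0.607, limma) and Flt3 (0.09, adjusted p = 0.794, limma). Mecom, a stem cell transcription factor, was lower in every KO-labelled library without being called (log2 fold change -0.25, adjusted p = 0.282, limma). It was the 1 marker of the 10 whose groups did not overlap, beside 4.83% of all genes that were lower in every KO-labelled library. The 10 markers of this list summed to 108205 to 118564 per wild-type library and 109292 to 111231 per KO-labelled library. RNA of the antibody-producing lineage was present and uneven. Immunoglobulin genes held 5.16% to 12.0% of the normalized counts in wild-type, with the highest share in wild-type replicate 4, and 5.81% to 8.72% in the KO-labelled libraries. The summed level of the 10 B-lineage and plasma cell markers was 161256 to 406396 and 189502 to 283615 in the same order, most of it Jchain and above the LSK sum in every library, and no gene of any marker list was at 0 in all libraries. T and innate lymphoid markers summed to 4246 to 5949 and 3914.5 to 5702, myeloid markers to 23549 to 26654 and 22631 to 26664, and erythroid and megakaryocyte markers to 5353 to 6581 and 6159 to 8151. The part of these cells in the results was not tested. In such bulk RNA, fewer cells of a type and less RNA per cell cannot be told apart.

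Tet1 (ENSMUSG00000047146, GRCm38 chromosome 10, 62804570 to 62908996, reverse strand) showed the largest difference of the 9. It had 2620.4, 2945, 2889.6 and 3079 normalized counts in the wild-type libraries (replicates 1 to 4) and 3329, 3027 and 3582 in the KO-labelled ones (replicates 1 to 3), the order used throughout. PROSER1 KO replicate 2 lay under wild-type replicate 4, so that the groups overlapped. With means of 2884 ± 193 (SD, n = 4) and 3313 ± 278 (SD, n = 3), its log2 fold change was 0.20 (standard error 0.073, 95% interval 0.035 to 0.36). It did not pass over all genes (unadjusted p = 0.0222, adjusted p = 0.407, limma; two-sided exact permutation test over 35 splits, p = 0.0857).

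Tet2 (ENSMUSG00000040943, chromosome 3, 133463679 to 133545139, reverse strand) encodes the TET enzyme most tied to blood disease. It had 2266, 2341, 2007 and 2773 normalized counts in wild-type, against 2702, 2109 and 2462 in the KO-labelled libraries. All 3 of the latter lay within the wild-type range. The log2 fold change was 0.05 (95% interval -0.21 to 0.30, adjusted p = 0.931, limma), the widest interval of the 9. Tet2 lies on the chromosome of Proser1, 79.98 Mb away. Tet3 (ENSMUSG00000034832, chromosome 6, 83362373 to 83459084, reverse strand), the TET gene with the highest counts here, had 5308, 5729.7, 5854 and 5988 in wild-type and 5699.9, 5345 and 6364 in the KO-labelled libraries. The groups overlapped, with a log2 fold change of 0.02 (95% interval -0.13 to 0.17, adjusted p = 0.957, limma). The direction for Tet2 and Tet3 turned when single libraries were left out.

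**Figure D1:**
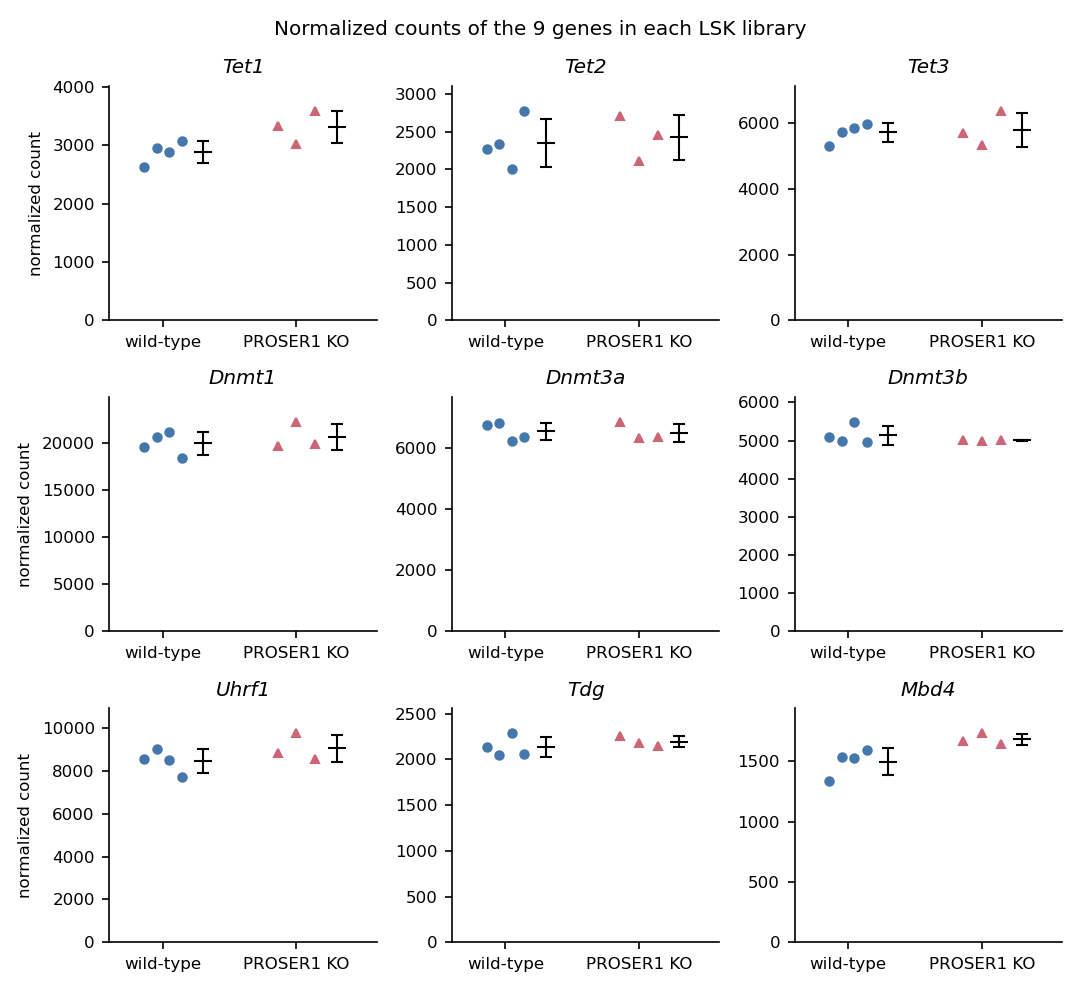
Normalized counts (vertical axis, from 0) of the 9 genes in the 4 wild-type libraries (circles) and the 3 KO-labelled libraries (triangles), with the group mean and SD in black to the right of the points. Only Mbd4 has all KO points (1639 to 1733) above all wild-type points (1338 to 1591), and the 3 KO values of Dnmt3b fall almost on one line (5002 to 5029). The latter is closer than counting error alone would usually leave them.

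Dnmt3a (ENSMUSG00000020661, chromosome 12, 3806007 to 3914443, forward strand) and Dnmt3b (ENSMUSG00000027478, chromosome 2, 153649450 to 153687730, forward strand) encode the enzymes of new methylation. Dnmt3a had normalized counts of 6764, 6828, 6237 and 6367 in wild-type and 6855, 6334 and 6353 in the KO-labelled libraries. The means, 6549 ± 291 (SD, n = 4) and 6514 ± 295 (SD, n = 3), gave a log2 fold change of -0.01 (95% interval -0.12 to 0.11, adjusted p = 0.979, limma), the smallest difference of the 9. Its sign turned in 4 of the 7 fits that left out a library. Dnmt3b had 5102, 4979.7, 5485 and 4972 in wild-type and 5029, 5002 and 5009 in the KO-labelled libraries, all of them within the wild-type range. The log2 fold change was -0.03 (95% interval -0.14 to 0.07, adjusted p = 0.874, limma). Dnmt3c, a rodent copy of Dnmt3b known from male germ cells, reached at most 4.80 normalized counts in a library, and the pseudogene Dnmt3a-ps1 was at 0 in all 7.

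Dnmt1 (ENSMUSG00000004099, chromosome 9, 20907209 to 20959888, reverse strand) had the highest counts of the 9, 19649.6, 20728, 21202 and 18428 in wild-type and 19782, 22271 and 19962 in the KO-labelled libraries. PROSER1 KO replicate 2 was the highest library and wild-type replicate 4 the lowest, with the other 5 between them. The log2 fold change was 0.05 (95% interval -0.10 to 0.19, adjusted p = 0.867, limma). Uhrf1 (ENSMUSG00000001228, chromosome 17, 56303321 to 56323486, forward strand), whose protein brings DNMT1 to newly copied DNA, had 8538, 9025, 8498 and 7689 in wild-type and 8813, 9752 and 8550.5 in the KO-labelled libraries. The same libraries were at the top and the bottom as for Dnmt1. The groups overlapped (log2 fold change 0.10, 95% interval -0.05 to 0.25, adjusted p = 0.671, limma).

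Mbd4 (ENSMUSG00000030322, chromosome 6, 115840697 to 115853371, reverse strand) was the 1 gene of the 9 whose groups did not overlap, beside 5.17% of all genes that were higher in every KO-labelled library. It had 1338, 1536, 1526 and 1591 normalized counts in wild-type, against 1670.1, 1733 and 1639 in the KO-labelled libraries. With means of 1498 ± 110.4 (SD, n = 4) and 1681 ± 48.0 (SD, n = 3), its log2 fold change was 0.17 (standard error 0.069, 95% interval 0.014 to 0.32). It did not pass over all genes (unadjusted p = 0.0354, adjusted p = 0.459, limma; two-sided exact permutation test, p = 0.0571). None of the 9 was lower in every KO-labelled library (0 of 9, beside 4.83% of all genes). A non-coding gene on the other strand, Gm44206, shares 264 bases of its exons with Mbd4 and reached at most 9.92 normalized counts.

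Tdg (ENSMUSG00000034674, chromosome 10, 82629828 to 82650799, forward strand), the glycosylase of the TET pathway, had 2130.0, 2046, 2286 and 2062 in wild-type and 2258, 2176 and 2140.0 in the KO-labelled libraries. The groups overlapped (log2 fold change 0.04, 95% interval -0.08 to 0.17, adjusted p = 0.867, limma). Its reads are less certain than those of the other enzymes, because the genome holds near-identical processed copies of its mRNA. Tdg-ps2 (chromosome 10, 42054113 to 42055306, reverse strand) matches the longest Tdg transcript in 99.2% of 1194 bases, with 9 differing bases, and Tdg-ps (chromosome 15, 82516311 to 82519278) in 98.7% of 2968. Tdg-ps2 matches bases 230 to 1423 of the 3502 in that Tdg transcript. Read pairs wholly inside the match can be told apart only where they cover differing bases. The stretch of the coding sequence with the most of these is shown for both, with the differing bases in capitals. In Tdg it lies within chr10:82648065-82648653 and spans an intron, and in Tdg-ps2 it is chr10:42054180-42054269 (GRCm38, 5′ to 3′ on the strand of each gene, from the GENCODE M21 transcripts).
Tdg: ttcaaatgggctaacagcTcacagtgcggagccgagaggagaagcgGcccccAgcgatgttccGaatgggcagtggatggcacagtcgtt
Tdg-ps2: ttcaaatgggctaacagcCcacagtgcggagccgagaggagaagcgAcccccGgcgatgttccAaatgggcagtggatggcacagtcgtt
Over these 90 bases the gene and the copy differ at 4. How the authors' counting treated read pairs that match both places is not given in the sources used here.

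Tdg-ps2 had normalized counts of 131, 159.6, 139 and 221 in wild-type and 269, 307 and 255 in the KO-labelled libraries. Its values in the latter all lay above those in wild-type, as did those of 5.17% of all genes. The log2 fold change was 0.79 (standard error 0.19), which limma did not call (adjusted p = 0.185) nor did edgeR (adjusted p = 0.217), whereas DESeq2 did (adjusted p = 0.00995). As a percentage of Tdg, the copy stood at 6.08% to 10.7% in wild-type and between 11.9% and 14.1% in the KO-labelled libraries. With the counts of both copies added, Tdg had 2223 to 2545 normalized counts, and its log2 fold change was 0.11 (95% interval -0.01 to 0.22, adjusted p = 0.528, limma). Tdg also shares 367 bases of exon, 6.83% of its own, with Glt8d2 on the other strand, which had 64.3 to 157 normalized counts. Whether the authors' counting used the strand is not stated, so that reads in these bases cannot be told apart.

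**Figure D2:**
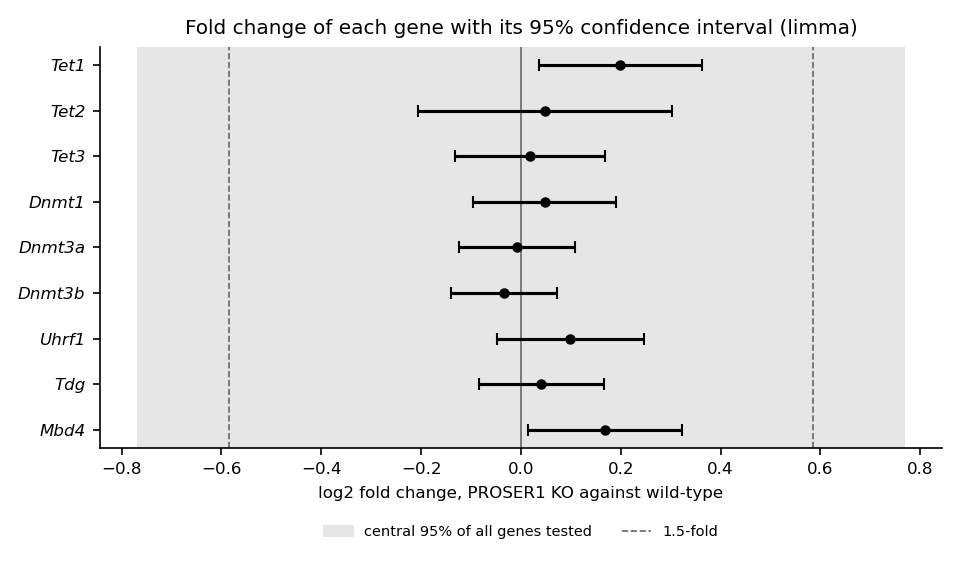
Log2 fold change of each gene in the KO-labelled libraries against wild-type (points) with its 95% confidence interval from limma (bars), the central 95% of the 16251 genes tested (grey band, -0.77 to 0.77) and a 1.5-fold change (dashed lines). All 9 intervals lie between the dashed lines and inside the band, and the intervals of Tet1 and Mbd4 alone leave out 0.

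The median absolute log2 fold change of the 9 genes was 0.05, against 0.09 over all genes tested, and 7 of the 9 were positive, against 8219 of 16251. The difference of Tet1 was larger than that of 72.0% of all genes, that of Mbd4 larger than 67.5% and that of Dnmt3a larger than 4.98%. They were also measured with a smaller error than most, with a median standard error of 0.066 on the log2 scale against 0.0999 over all genes, so that the comparison with all genes is a description.

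Levels were set against each other per kilobase of exon (union of all annotated exons of GENCODE M21), since the exons of the 9 genes span 4259 (Uhrf1) to 16870 (Tet2) bases. In wild-type the maintenance pair led, with Dnmt1 at 2711 ± 167 normalized counts per kilobase (SD, n = 4) and Uhrf1 at 1981 ± 129.9. Dnmt3b followed at 1006 ± 47.2. Then came Tdg at 397 ± 20.4, Dnmt3a at 394 ± 17.5, Tet3 at 343 ± 17.6 and Mbd4 at 284 ± 20.9 per kilobase. Tet1 at 187 ± 12.5 and Tet2 at 139 ± 18.9 were the lowest. On this scale Dnmt1 stood above 96.1% of the genes tested and Uhrf1 above 94.3%, while Tet2 stood above 41.6%. Neighbors in this order did not overlap among the wild-type libraries, except Tdg and Dnmt3a, which differed by less than their spread, and in all 7 libraries the higher neighbor led except for that pair (5 of 7) and for Tet3 over Mbd4 (6 of 7). The lengths matter for the low end. With the longest annotated transcript as the length, Tet2 (256 per kilobase) lay above Tet1 (201) and Dnmt3a (676) above Tdg (609), with the rest of the order as before.

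**Figure D3:**
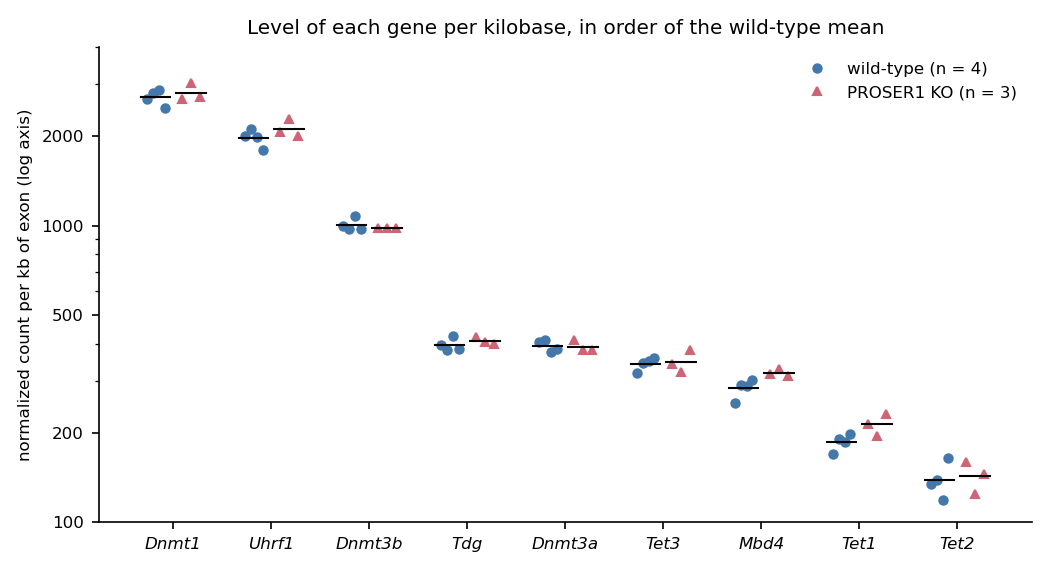
Normalized count per kilobase of exon (vertical log axis) in each wild-type library (circles) and each KO-labelled library (triangles), with group means as black lines and genes in the order of the wild-type mean. Dnmt1 (2498 to 2874 in wild-type) and Uhrf1 (1805 to 2119) stand highest and Tet2 (119 to 164) lowest, in the same order in both groups.

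The spread between libraries differed among the genes. In wild-type the coefficient of variation was highest for Tet2, at 13.6%, and 4.45% to 7.37% for the other 8. In the KO-labelled libraries it was 12.3% for Tet2 and 0.283% for Dnmt3b, whose 3 values agree more closely than those of any other of the 9 genes. Dnmt3b had 4821, 5911 and 5217 read pairs there, and counting error alone would usually spread such numbers by more than 0.283%. The closeness is thus finer than these counts resolve and is not read as a trait of the gene.

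The balance within each family was read as shares and ratios inside a library, which do not depend on its size factor. Of the TET signal per kilobase, Tet3 held 51.3% ± 1.55 in wild-type (SD, n = 4) and 49.3% ± 1.43 in the KO-labelled libraries (SD, n = 3), Tet2 held 20.8% ± 1.97 and 20.4% ± 1.72, and Tet1 held 27.9% ± 0.583 and 30.4% ± 0.291. The share of Tet1 did not overlap between the groups, which was noticed after the values had been seen and is given with no test. Set in the same way against Tet2 and Tet3, 6.17% of the other genes did not overlap. The size of each TET share depends on the length used, here the union of exons. With the longest transcript as the length, Tet2 (256 per kilobase in wild-type) lay above Tet1 (201). Of the DNMT signal, Dnmt1 held 65.9% ± 0.979 and 67.1% ± 1.67, Dnmt3b 24.5% and 23.5%, and Dnmt3a 9.59% and 9.39%. The summed TET signal was 622 to 722 per kilobase in wild-type and between 641 and 759 in the KO-labelled libraries, and the summed DNMT signal 3854 to 4323 and 4069 to 4379. Both sums overlapped between the groups.

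Of 5 ratios compared between the groups, none differed beyond the spread of the libraries and all overlapped. The difference in the log2 ratio was 0.15 for Tet1 to Tet2 (two-sided exact permutation test, p = 0.286, adjusted over the 5 ratios 0.714), 0.05 for Uhrf1 to Dnmt1 (p = 0.229, adjusted 0.714) and -0.06 for Dnmt3a to Dnmt1 (p = 0.571, adjusted 0.857). It was 0.03 for Tet2 to Tet3 and -0.03 for Dnmt3b to Dnmt3a (exact p = 0.857 and adjusted p = 0.857 for both). The smallest p that 4 libraries against 3 allow is 0.0286. The log2 ratio of Uhrf1 to Dnmt1 kept within -1.32 to -1.17 in all 7 libraries, so that Uhrf1 had 0.422 (wild-type) and 0.437 (KO-labelled libraries) normalized counts for each of Dnmt1.

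Among all 36 pairs of the 9 genes, the ratio did not overlap between the groups in 3, which were looked for after the values had been seen and are given with no test. The first is Tet1 to Tet3, which uses the same counts as the share of Tet1, with 0.494, 0.514, 0.494 and 0.514 in wild-type and 0.584, 0.566 and 0.563 in the KO-labelled libraries. The groups are apart and each is narrow. The other two are Dnmt3b to Tdg (2.40 to 2.43 against 2.23 to 2.34) and Dnmt3b to Mbd4 (3.13 to 3.81 against 2.89 to 3.06). For Dnmt3b to Tdg the gap between the groups is about the size of the counting error in a single library. Tdg had 1779 to 2571 read pairs per library, and its reads are less certain because of its copies. Of the other genes tested, the share whose ratio did not overlap was 4.7% against Tet2, 6.07% against Tet3, 7.32% against Dnmt3a, 8.24% against Dnmt1, 8.69% against Tdg, 9.69% against Dnmt3b and 11.5% against Uhrf1. Against Tet1 and Mbd4, the genes with the largest differences, it was 20.8% and 23.0%.

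**Figure D4:**
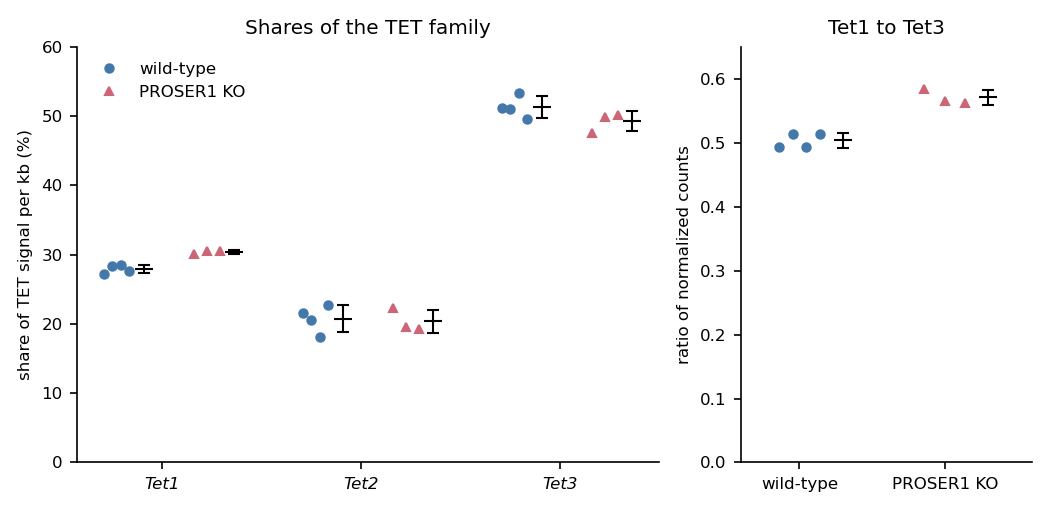
Left, share of each TET gene in the summed TET signal per kilobase of the union of exons (percent, from 0), and right, ratio of the normalized counts of Tet1 to Tet3, in wild-type (circles) and in the KO-labelled libraries (triangles), with mean and SD in black. The share of Tet1 is 27.3% to 28.5% in wild-type and between 30.0% and 30.5% in the KO libraries, and the ratio is 0.494 to 0.514 and 0.563 to 0.584, while the shares of Tet2 and Tet3 overlap; share and ratio come from the same counts and were picked after the values were seen.

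Dnmt1 and Uhrf1 serve replication, so the 9 genes were also read against the cells' S phase genes. These were 41 genes taken from the S phase list of Seurat in mouse symbols, Uhrf1 not among them. The score is the mean centered log2 value of the list. It was -0.06, 0.012, 0.034 and -0.12 in wild-type and -0.05, 0.18 and 0.0052 in the KO-labelled libraries, lowest in wild-type replicate 4 and highest in PROSER1 KO replicate 2. These are the libraries with the lowest and the highest counts of Dnmt1 and Uhrf1. Wild-type replicate 4 also had the highest immunoglobulin share, 12.0%, and PROSER1 KO replicate 2 the lowest of its group, 5.81%, and the part of that RNA in this order was not tested.

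Over the 7 libraries, Dnmt1 followed the S phase score with r = 0.955 (exact permutation p = 0.00198) and rho = 1 (exact permutation p = 0.000397), and Uhrf1 with r = 0.859 (exact permutation p = 0.0260) and rho = 0.607 (exact permutation p = 0.167). Adjusted over the 16210 genes set against the list, neither passed (exact permutation, adjusted p = 0.305 and 0.386). Without the 2 libraries farthest from the median score, PROSER1 KO replicate 2 and wild-type replicate 4, r was 0.882 for Dnmt1 (exact permutation p = 0.0917) and -0.05 for Uhrf1 (exact permutation p = 0.925). The relation of Uhrf1 thus rests on those libraries, and that of Dnmt1 did not pass without them, where 5 libraries allow no p below 0.00833. Within the groups, as deviations from the group means, r was 0.961 for Dnmt1, 0.825 for Uhrf1 and -0.89 for Tet2. Tet2 went the other way, with r = -0.73 (exact permutation p = 0.0552, adjusted p = 0.465) and rho = -0.75 (exact permutation p = 0.0663), and r = -0.60 without the 2 libraries. The other 6 genes had r between -0.36 (Dnmt3a) and 0.435 (Mbd4), with exact permutation p from 0.310 to 0.999. In all, 2 of the 9 had an unadjusted p-value under 0.05, beside 11.1% of all genes. Against the G2/M list (51 genes) there were 0 of 9, beside 8.59% of all genes.

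**Figure D5:**
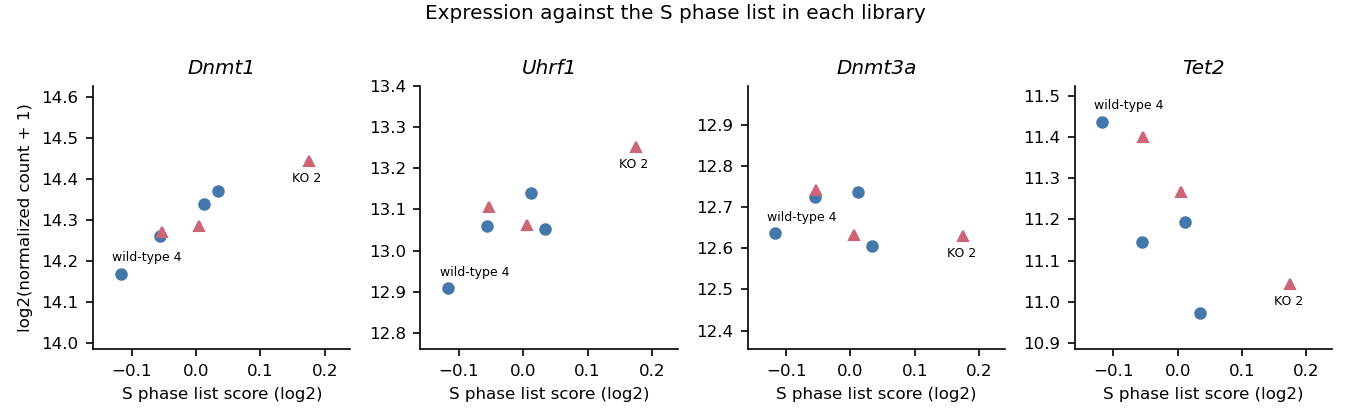
Log2(normalized count + 1) of Dnmt1, Uhrf1, Dnmt3a and Tet2 (vertical axes, each spanning the same range) against the S phase score of each library (horizontal axis, mean centered log2 value of 41 genes), wild-type as circles and KO-labelled libraries as triangles, with the 2 outermost libraries named. Dnmt1 climbs with the score through all 7 libraries (r = 0.955), Uhrf1 through the 2 outermost (r = 0.859), Dnmt3a shows no slope that stands out from its scatter (r = -0.36) and Tet2 descends (r = -0.73).

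Dnmt1 and Uhrf1, the genes with the highest r against the S phase list, each have more than 1 promoter window. The one of each with the most CpG, more than 91.4% of all windows, is printed. Matches to 2 motifs of E2F factors, which regulate genes of replication, are in capitals. The windows over the annotated start of the gene have only 2 (Dnmt1) and 12 CpG (Uhrf1). Dnmt3a, with r = -0.36 against the list, has windows with 46 and 47 CpG, so that this trait is not particular to the 2 printed genes. A relation of the windows with the S phase score was not tested. The windows run from 250 bases before to 50 bases after a transcript start of RefSeq (GRCm38.p6), and 14 of them matched the 9 genes. TTTCCCGC and TTTGGCGC, which do not overlap each other, were searched on both strands. Other forms of the E2F motif were not searched, so that the printed windows can hold them unmarked. The Dnmt1 window is chr9:20952574-20952873 (reverse strand, 33 CpG) and the Uhrf1 window chr17:56304063-56304362 (forward strand, 33 CpG).
Dnmt1: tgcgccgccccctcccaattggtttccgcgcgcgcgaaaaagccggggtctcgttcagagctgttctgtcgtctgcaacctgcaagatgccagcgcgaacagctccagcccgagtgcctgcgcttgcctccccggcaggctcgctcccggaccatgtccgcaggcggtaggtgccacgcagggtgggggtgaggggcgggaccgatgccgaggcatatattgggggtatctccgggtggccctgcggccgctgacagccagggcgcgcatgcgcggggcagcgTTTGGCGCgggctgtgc
Uhrf1: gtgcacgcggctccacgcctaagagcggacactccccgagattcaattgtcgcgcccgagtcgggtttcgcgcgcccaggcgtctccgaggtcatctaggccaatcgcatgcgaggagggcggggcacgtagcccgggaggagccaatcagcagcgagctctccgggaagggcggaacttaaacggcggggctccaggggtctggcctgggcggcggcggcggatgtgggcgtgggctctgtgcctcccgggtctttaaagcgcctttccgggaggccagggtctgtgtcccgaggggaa
The Dnmt1 window holds 1 match, TTTGGCGC near its 3′ end, and no other window of the 9 genes holds either motif. Of all 32851 windows, 1.56% hold one. The median window had 7 CpG, and the windows of the 9 genes had 2 (the most upstream start of Dnmt1) to 57 (Tet2, more than 99.8% of windows). A match in these letters is a description and not a measured binding site.

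The genes whose values over the 7 libraries followed each enzyme most closely, by Pearson r of the log2 values, were Mapk9 for Tet1 (r = 0.989), Uhrf1bp1 for Tet2 (0.984), Prpf4b for Tet3 (0.981), Psmc6 for Dnmt1 (0.990), Pik3r4 for Dnmt3a (0.979), Bcor for Dnmt3b (0.988), Gm15682 for Uhrf1 (0.997), Gm37125 for Tdg (0.995) and Enpep for Mbd4 (0.993). Between 25 (Dnmt3b) and 151 (Dnmt1) of the 16250 other genes had r above 0.9 with each, so that these names are the top of a long list over 7 libraries.

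The partners and suppliers of these enzymes did not pass either. In 7 lists (TET partners, maintenance partners, methyl-CpG binding proteins, base excision repair, S-adenosylmethionine supply, 2-oxoglutarate supply and germline genes silenced by methylation), 0 genes were called, beside 0.258% of all genes. Of the TET partners 9 of 11 were tested, 4 of them positive, with a median log2 fold change of -0.02. Besides Proser1, the lowest p-value was that of Pspc1, a paraspeckle protein of the TOPD complex, with 2194 to 2406 normalized counts in wild-type and between 2104 and 2165 in the KO-labelled libraries (log2 fold change -0.11, adjusted p = 0.527, limma). The groups did not overlap. All 8 maintenance partners were tested, 5 positive, with a median of 0.02 and 0 of 8 with groups apart, beside 5.17% (higher) and 4.83% (lower) of all genes. Uhrf2, the paralog of Uhrf1, had a log2 fold change of 0.12 (adjusted p = 0.528, limma) and Hells, a chromatin remodeler needed for methylation, 0.09 (adjusted p = 0.655, limma).

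Of the 7 methyl-CpG binding proteins 2 were positive, with a median of -0.03. Zbtb33, which encodes Kaiso, had 1841 to 1971 normalized counts in wild-type and between 2055 and 2227 in the KO-labelled libraries, without overlap (log2 fold change 0.17, unadjusted p = 0.0105, adjusted p = 0.327, limma). Of all genes, 5.17% were likewise higher in every KO-labelled library. Zbtb4 had -0.18 (adjusted p = 0.473, limma). Of the 10 genes of base excision repair 5 were positive, with a median of 0.0024, and the lowest p-values were those of the glycosylases Neil3 (log2 fold change 0.23, adjusted p = 0.450, limma) and Neil1 (-0.15, adjusted p = 0.656, limma).

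Genes that supply the methyl donor and the TET cofactor were not called. Among 9 genes of S-adenosylmethionine supply, the log2 fold changes ran from -0.09 to 0.06, with Mtr, methionine synthase, at 0.06 (adjusted p = 0.694, limma) and Mthfd1, a folate enzyme, at -0.07 (adjusted p = 0.790, limma). Among 10 genes of 2-oxoglutarate supply and cofactors they ran from -0.12 to 0.09. Idh1 and Idh2, isocitrate dehydrogenases that make 2-oxoglutarate, had -0.12 (adjusted p = 0.581, limma) and -0.08 (adjusted p = 0.614, limma). Idh3a, of a further isocitrate dehydrogenase that makes it, had 0.03 (adjusted p = 0.913, limma). The values of Idh1 lay at 956 to 1040 in wild-type and between 890 and 955 in the KO-labelled libraries, without overlap. Those of Mtr did not overlap in the other direction, at 3584 to 3801 in wild-type and between 3832 and 3959 in the KO-labelled libraries. Of all genes, 4.83% were lower and 5.17% higher in every KO-labelled library.

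Germline genes that DNA methylation keeps silent were mostly near 0. Of 10, only Ddx4 and Dazl were tested. Ddx4, a germ cell RNA helicase, had 616, 525, 498 and 442 normalized counts in wild-type, against 459, 371 and 376 in the KO-labelled libraries, with overlap (log2 fold change -0.37, unadjusted p = 0.0195, adjusted p = 0.396, limma). Dazl had 4.64 to 17.2 over all libraries. Tex19.1, named here after its values were seen, had no read pair in wild-type (0 in each of 4 libraries) and stood at 3.13, 2.54 and 4.80 in the KO-labelled libraries, near the 2.54 to 3.48 that 3 read pairs come to, the limit that a count of 0 allows for counting error only. Slc25a31, named in the same way, went the other way, with 0, 3.61, 5.75 and 8.11 in wild-type and 0, 0.85 and 0 in the KO-labelled libraries. Hormad1 had 0, 0, 2.30 and 2.32 in wild-type and 0 in each KO-labelled library. The germline genes near 0 thus shared no direction.

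No gene of the cell cycle lists was called (0 of 41 and 0 of 51). Of the 41 S phase genes 36 were positive, with a median log2 fold change of 0.07, and Ccne2 (0.30, adjusted p = 0.334, limma) and E2f8 (0.24, adjusted p = 0.436, limma) had the lowest p-values. Of the 51 G2/M genes 48 were positive, with a median of 0.16 against 0.0015 over all genes, and 17 had an unadjusted limma p-value under 0.05, beside 9.73% of all genes. The libraries did not all share this direction. The G2/M score was -0.15, -0.11, 0.092 and -0.11 in wild-type and -0.07, 0.22 and 0.14 in the KO-labelled libraries, so that the groups overlapped, with wild-type replicate 3 above PROSER1 KO replicate 1. Dlgap5 (0.38, adjusted p = 0.222, limma) and Psrc1 (0.27, adjusted p = 0.248, limma), both of the mitotic spindle, had the lowest p-values, and all their KO-labelled values lay above those in wild-type. That held for 5 of the 51 genes, beside 5.17% of all genes. For Dlgap5 the adjusted p-value was 0.0269 (limma) without wild-type replicate 3 and 0.0171 with DESeq2, at a fold change under 1.5. Hjurp, a centromere chaperone of the same list named after its value was seen, was the other of 2 genes in the pathway and cell cycle lists under 0.05 with DESeq2 (log2 fold change 0.19, adjusted p = 0.0468).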

How the data were processed

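The 7 libraries (4 wild-type, 3 PROSER1 KO) hold polyA RNA of sorted LSK cells and were grouped by their labels. Per the submitters' notes and the methods, the authors ran Trimmomatic and then STAR against mm10, took the read pairs of each gene from featureCounts and scaled them with the size factors of DESeq2, so that the deposited values are a normalized signal per gene. Every value was a whole multiple of the step of its library (100% within 0.01 read pairs), and read pairs were recovered from it. The kit was directional, but the strand setting of the counting is not given in the sources used here. The table and the methods name different GENCODE releases, and positions are from M21 (GRCm38). Genes without a symbol (685, at most 0.135% of counts) stayed in the tests, and 0 columns were unused.

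The main test was limma 3.58.1 in R 4.3.3 (lmFit, eBayes with trend) on log2(normalized count + 1), mean at least 10. On this scale low genes are understated. The alternatives used pseudocounts of 0.1 and 10, other filters and variance estimates, quantile or TMM scaling, edgeR 4.0.16, DESeq2 1.42.0, the replicate number as a block, and each library left out. The count tests called 40 (edgeR) and 165 genes (DESeq2). The design had assumed normalized counts, and this is what was found. Single values were tested over all 35 splits, and relations over all 5040 orders of the libraries, with scipy 1.17.1. Copies were aligned with blastn 2.17.0+. The procedures were tested on simulated data.

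Libraries of a group differed beyond sampling noise (ratio of chi-square to its degrees of freedom 30.4 to 96.6), so none was counted as a repeat. Replicate numbers are shared by the groups without marking a shared animal or day.

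Named genes were the 9 enzymes, the gene most like each, Proser1, called genes or else the 2 lowest p-values of each list, and genes overlapping the enzymes. The enzymes, the lists, the markers and this rule were chosen with earlier results of these data known. Tdg-ps2 and the ratios of all pairs were added after values had been seen.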

Additional observations from a re-analysis of the deposited data

How the results depend on the processing

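The number of enzymes called stayed at 0, as did that of the listed pathway genes, under the 12 other settings and in the 7 fits that left out a library. Over all genes the count ran from 17 (limma without trend) to 165 (DESeq2) around 42. With the replicate number as a block 0 of the 9 enzymes were called, and 35 genes over all. The numbers do not pair the samples (correlations of same-numbered deviations 0.023, 0.058 and -0.11).

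Leaving out a library, the log2 fold change ran from 0.14 to 0.26 for Tet1 and from 0.12 to 0.20 for Mbd4, and of these unadjusted p-values 0 of 2 were under 0.05 without wild-type replicate 1, PROSER1 KO replicate 1 or PROSER1 KO replicate 3, and 1 without PROSER1 KO replicate 2. It moved by over 1.5 times but kept its sign for Uhrf1 (0.043 to 0.14), Tdg (0.019 to 0.075), Dnmt3b (-0.048 to -0.0013) and the log2 ratios Uhrf1 to Dnmt1 (0.027 to 0.067) and Tet1 to Tet2 (0.099 to 0.23). It crossed 0 for Tet2 (-0.033 to 0.15), Tet3 (-0.050 to 0.076), Dnmt1 (-0.0073 to 0.078) and Dnmt3a (-0.045 to 0.013), and so did the log2 ratios Tet2 to Tet3 (-0.062 to 0.092), Dnmt3a to Dnmt1 (-0.12 to 0.019) and Dnmt3b to Dnmt3a (-0.061 to 0.029). The number of enzymes related to the S phase list was 2, between 1 and 3 with a library left out, 0 without the 2 outermost libraries and 0 with the G2/M list. Fewer libraries give fewer orders to permute, and the cause of the changes was otherwise not tested. Without limma's trend 0 of the 9 had an unadjusted p-value under 0.05.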
